A study of Mus musculus with 71 samples.

Results

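Notch signaling was followed in mouse hippocampal mRNA through 10 genes: the receptors Notch1, Notch2 and Notch3, the ligands Dll1 and Jag1, the DNA-binding mediator Rbpj, and the targets Hes1, Hes5, Hey1 and Hey2. The genes were taken by name, as the rows of the count table whose Ensembl identifiers map to these mouse symbols. They were 10 of the 57010 genes in the table, and all 10 were among the 30141 that reached 10 counts over all mice and were tested.

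The mRNA came from the hippocampus of 71 wild-type C57BL/6J male mice and was isolated by pS6-TRAP, in which an antibody against phosphorylated ribosomal protein S6 pulls down ribosomes together with the mRNA they carry. The antibody selects no cell type, so each library is a mixture over all hippocampal cells with phosphorylated S6. Mice were fed from the age of 3 weeks for 12 weeks with normal chow at all times (NC ad lib), with a high-fat, high-sucrose diet at all times (HFS ad lib), or with the same diet at all times for 8 weeks and then only from zt11 to zt1 for the last 4 weeks (HFS TRF, time-restricted feeding). Zeitgeber time (zt) counts hours from lights on. Within each diet, 6 mice were taken from the home cage at zt3 (HC zt3), 6 were taken 1 h after a 10-min object recognition memory training held between zt2 and zt4 (ORM+1 h), 6 came from the home cage at zt15 (HC zt15), and 6 were taken 12 h after the same training (ORM+12 h), except that HFS TRF HC zt15 held 5 mice. The labels give each mouse as a separate replicate.

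Notch receptors are single-pass membrane proteins that are activated by ligands of the Delta and Jagged families on a neighboring cell. Binding leads to cleavage of the receptor by ADAM proteases and then by gamma-secretase, and the released intracellular domain enters the nucleus and turns the DNA-binding protein Rbpj from a repressor into an activator. The direct targets are transcriptional repressors of the Hes and Hey families. In the adult brain the pathway is known for keeping neural stem cells undifferentiated, for its activity in astrocytes and blood vessels, and for an activity-dependent role in neurons.

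Total counts per mouse ran from 34698914 to 62758570 with a median of 53999489. Every library held hippocampal neuron mRNA, with Prox1, a marker of dentate granule cells, at 44.9 CPM (counts scaled to library size) or more and Neurod6, a marker of pyramidal cells, at 205 CPM or more. All 4 immediate early genes checked (Fos, Arc, Egr1, Npas4) were higher at ORM+1 h than at HC zt3 in each of the 3 diets. Of 5 clock genes, 3 were higher and Bmal1 was lower at HC zt15 than at HC zt3 in each diet. The summed level of 8 choroid plexus markers, led by Ttr, ranged from 98.0 to 12256 CPM within NC ad lib ORM+1 h alone, and so differed widely between mice treated alike. Endothelial markers summed to 11.8 to 36.8 CPM over 9 genes and mural cell markers to 19.0 to 52.8 CPM over 9 genes in all mice, with Egfl7 (7.76 CPM in the lowest mouse), Rgs5 (10.9 CPM), Vtn (2.28 CPM) and Pdgfrb (2.04 CPM) present in every mouse, while Tek, Slco1a4, Ly6c1, Kcnj8 and Abcc9 reached 0 in the lowest mouse. The HC zt3 and ORM+1 h mice (36) belonged to a first experiment and the HC zt15 and ORM+12 h mice (35) to a second, so where these are compared the hour and the experiment cannot be told apart. In such bulk libraries, fewer cells of a type and less RNA per cell cannot be told apart either.

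Ordered by CPM per kilobase of exon, which allows for the length of each gene, the targets Hey1, Hes5 and Hes1 were the most abundant of the 10. Hey1 averaged 13.0 over the 12 group means and was above Hes5 in every mouse. Hes5 averaged 3.92 and Hes1 3.44 CPM per kilobase, and these neighbors overlapped, Hes5 being the lower of both in 28 of 71 mice. Notch2 followed at 1.197, Rbpj at 1.04 and Dll1 at 1.02, also without clear separation, since Notch2 was below Rbpj in 32 mice and Rbpj below Dll1 in 34 mice. Notch1 (0.696) and Hey2 (0.682) changed places in 28 mice and Hey2 and Jag1 (0.424) in 21 mice. Notch3, which marks pericytes and smooth muscle cells of vessels as well as some progenitors, was the least abundant at 0.0855 CPM per kilobase, with 8 to 120 counts per mouse.

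Spread between mice of a group also differed between the genes. The SD within groups was 8.83% of the mean for Hey1, 12.8% for Rbpj and 13.4% for Hes1, against 39.4% for Notch2, 40.6% for Hes5, 43.7% for Hey2 and 52.7% for Notch3. Between groups, the highest mean was 2.75 times the lowest for Hey2, 2.66 times for Jag1, 2.27 times for Hes5 and 2.19 times for Notch2, but 1.26 times for Hey1 and 1.28 times for Rbpj. NC ad lib HC zt3 was the lowest of the 12 groups for Notch1, Notch2, Jag1 and Hey2.

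**Figure D1:**
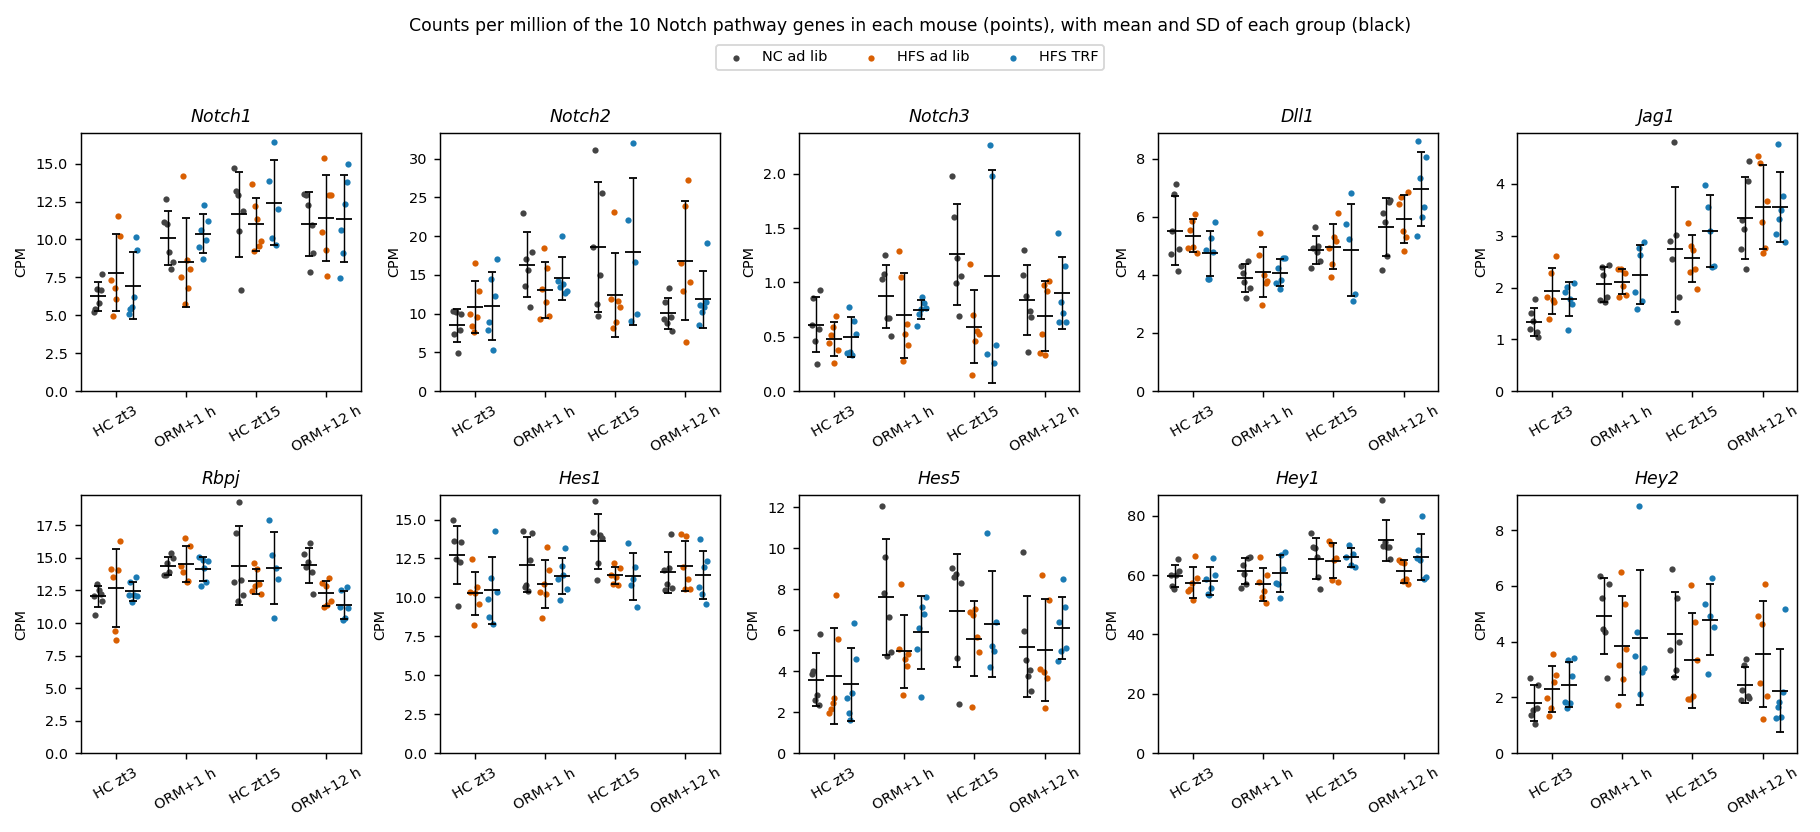
CPM of each of the 10 genes (vertical axes, linear, from 0) in every mouse, grouped by condition and colored by diet, with black bars for the mean and SD of each group. The HC zt3 mice of NC ad lib lie lowest for Notch1, Notch2, Jag1 and Hey2, whereas Hey1, Hes1 and Rbpj stay in narrow bands.

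The counts of some of these genes could carry a limit of position. Dll1 (GRCm39 chr17:15587276-15597134, minus strand) overlaps the opposite-strand gene Fam120b, which had 290570 counts over all mice against 19115 for Dll1. Notch3 (chr17:32339794-32385893, minus strand) overlaps the opposite-strand lncRNA Gm17276, with 6105 counts against 2881. These overlaps are of whole gene spans, and whether exons overlap was not checked. The libraries were made with a stranded kit, but the strand setting of the counting is not given in the sources used here. Without it, reads of partners that share exons cannot be told apart. Hey2 (chr10:30708350-30718828, minus strand) overlaps no annotated gene. Rbpj (chr5:53623494-53814704, plus strand) has 2 annotated pseudogene copies with 4 and 2767 counts against 50503, so a share of its reads could be split among them.

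Rbpj binds DNA at sites with the core letters TGGGAA, which read TTCCCA on the opposite strand. The 250 bases before the annotated start of the target genes Hes1, Hes5 and Hey2 are shown because they are promoters this mediator is known to act on, with TGGGAA or TTCCCA in capitals, read 5′ to 3′ on the strand of the gene in GRCm39.
Hes1 (chr16:29883877-29884126, plus strand): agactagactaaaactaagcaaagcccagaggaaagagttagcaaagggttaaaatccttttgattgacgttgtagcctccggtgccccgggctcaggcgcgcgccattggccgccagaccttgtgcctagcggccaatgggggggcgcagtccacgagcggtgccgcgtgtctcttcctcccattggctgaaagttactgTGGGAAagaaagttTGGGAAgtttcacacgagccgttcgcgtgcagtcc
Hes5 (chr4:155045123-155045372, plus strand): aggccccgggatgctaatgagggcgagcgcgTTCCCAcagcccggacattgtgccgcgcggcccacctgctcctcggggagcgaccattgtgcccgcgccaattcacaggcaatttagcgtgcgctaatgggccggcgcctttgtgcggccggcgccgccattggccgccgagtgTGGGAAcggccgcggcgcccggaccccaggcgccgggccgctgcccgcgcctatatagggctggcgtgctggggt
Hey2 (chr10:30718829-30719078, minus strand): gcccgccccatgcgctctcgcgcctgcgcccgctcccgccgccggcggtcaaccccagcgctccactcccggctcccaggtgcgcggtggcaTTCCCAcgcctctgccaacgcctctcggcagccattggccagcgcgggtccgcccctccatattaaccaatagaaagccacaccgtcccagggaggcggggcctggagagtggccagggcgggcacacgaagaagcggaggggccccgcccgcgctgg
Hes1 held 2 matches on its own strand, 49 to 44 and 35 to 30 bases before the start. Hes5 held 1 match on the opposite strand, 219 to 214 bases before the start, and 1 on its own strand, 75 to 70 bases before it. Hey2 held 1 match on the opposite strand, 158 to 153 bases before the start. Among the receptors, ligands and mediator, Rbpj had 1 match and Notch1, Notch2, Notch3, Dll1 and Jag1 had 0 in the same window. Among 21757 protein-coding genes, 22.7% of such windows held at least 1 match and 3.06% held 2 or more, and a match is a description of letters, not of binding.

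The first comparison set ORM+1 h against HC zt3 within each diet, for mRNA on pS6 ribosomes 1 h after a training session. The HC zt3 mice stayed in the home cage, so learning and exposure to the arena and objects cannot be told apart. Training was held between zt2 and zt4, so the hour of collection could also differ from zt3. In NC ad lib mice 6 of the 10 genes passed the test, with Notch1, Notch2, Jag1, Hes5 and Hey2 higher and Dll1 lower after training. Over all genes tested, 5.73% passed in this comparison, 4.03% higher and 1.70% lower. The median log2 fold change of the 10 genes was 0.56, beside 0 over all genes. Fold changes and p-values here and below come from edgeR's quasi-likelihood test over all 12 groups, and p was adjusted by Benjamini-Hochberg over all genes tested in a comparison, with an adjusted p under 0.05 counted as passing.

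Among the receptors, Notch1, which is expressed by neural stem cells, astrocytes and neurons, ran from 5.19 to 7.71 CPM (median 6.23) in the 6 home cage mice and from 8.05 to 12.6 CPM (median 10.1) in the 6 trained mice of the NC ad lib diet. Every trained mouse was above every home cage mouse, where the groups of 4.67% of all genes did not overlap, and the log2 fold change was 0.69 (SE 0.19, adjusted p = 0.0178). Notch2, the receptor closest in sequence to Notch1, ran from 4.95 to 10.3 CPM (median 8.92) at HC zt3 and from 10.8 to 23.0 CPM (median 16.3) at ORM+1 h. These groups did not overlap either, and the log2 fold change was 0.95 (SE 0.28, adjusted p = 0.0269). Notch3 spread from 0.248 to 0.934 CPM before and 0.509 to 1.26 CPM after training, with a log2 fold change of 0.51 (SE 0.40, adjusted p = 0.552), so a change was not detectable at its 12 to 76 counts per mouse.

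The 2 ligands went in opposite directions. Jag1, a Jagged-type ligand, was at 1.05 to 1.78 CPM (median 1.28) in HC zt3 and 1.72 to 2.43 CPM (median 2.03) in ORM+1 h, 4 of 6 trained mice lying above all home cage mice, and rose by 0.62 on the log2 scale (SE 0.20, adjusted p = 0.0484). Dll1, a Delta-type ligand also known from differentiating neural cells, went from 4.14 to 7.12 CPM (median 5.20) to 3.21 to 4.49 CPM (median 3.91), 4 of 6 trained mice lying below all home cage mice, and fell by 0.50 (SE 0.15, adjusted p = 0.0287). Rbpj was at 10.6 to 13.0 CPM before and 13.7 to 15.4 CPM after training. Its groups did not overlap, while its log2 fold change of 0.26 (SE 0.11) did not pass the adjusted test (adjusted p = 0.163).

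Of the 4 targets, Hes5 and Hey2 rose, and Hes1 and Hey1 did not pass. Hey2 ran from 1.03 to 2.70 CPM (median 1.59) in the home cage and from 2.70 to 6.37 CPM (median 5.02) after training, and 5 of the 6 after training exceeded all 6 before it. Its log2 fold change of 1.45 (SE 0.34, adjusted p = 0.00325), or 2.74-fold, was the largest of the 10. Hes5, a target prominent in neural stem cells and astrocytes, ran from 2.33 to 5.82 CPM (median 3.36) and from 4.72 to 12.1 CPM (median 7.22), a log2 fold change of 1.09 (SE 0.34, adjusted p = 0.0372), and 4 of 6 trained mice were above all home cage mice. Hes1 was at 9.45 to 14.96 CPM and 10.4 to 14.3 CPM, a log2 fold change of -0.07 (95% interval -0.29 to 0.15), and Hey1 at 55.4 to 65.4 and 55.7 to 66.0 CPM, a log2 fold change of 0.04 (interval -0.11 to 0.18). The intervals of both exclude a change as large as that of Hey2 or Hes5.

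Of these 6 calls, that of Hey2 held with any 1 mouse left out and the other 5 each depended on single mice. Notch1 lost its call without HC zt3 replicate 1 or ORM+1 h replicate 2 (adjusted p of 0.0505 to 0.0614). Notch2 lost its call without HC zt3 replicate 2, 4 or 5 or ORM+1 h replicate 1 or 6 (0.0524 to 0.0975), Dll1 without HC zt3 replicate 3 or 4 or ORM+1 h replicate 3, 4 or 6 (0.0533 to 0.126), Jag1 without HC zt3 replicate 1, 2, 3, 5 or 6 or ORM+1 h replicate 1, 2, 3 or 6 (0.0564 to 0.145), and Hes5 without HC zt3 replicate 1 to 5 or ORM+1 h replicate 1 to 3 (0.0535 to 0.141). The number of the 10 genes called then ran from 3 to 6.

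Astrocyte markers moved with the same comparison. All 12 of 12 rose in NC ad lib mice at ORM+1 h, with a median log2 fold change of 1.42, and their summed level went from a range of 1408 to 1989 CPM at HC zt3 to one of 3245 to 5363 CPM at ORM+1 h. With the mean z score of these 12 genes as a covariate, a model added after the results were seen, 0 of the 10 genes passed, and the log2 fold change was -0.18 for Notch1 (adjusted p = 0.736) and -0.44 for Hes5 (adjusted p = 0.541), but still 1.43 for Hey2 (adjusted p = 0.0635), 0.60 for Notch2 (0.504) and -0.64 for Dll1 (0.0617). The number passing among all 30141 genes fell too, from 1727 without that covariate to 349 with it. With the choroid plexus score as the covariate instead, where 1803 of all genes passed, all 6 passed, Notch2 at 0.77 and Hey2 at 1.29. Choroid plexus markers, of which 0 of 8 passed, had a median log2 fold change of 1.52. A marker score that itself differs between the groups takes part of the group difference with it, and the part of astrocytes in these results was not tested further.

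In HFS ad lib mice, 0 of the 10 genes passed for ORM+1 h against HC zt3, where 1.23% of all genes did. With DESeq2 0 passed, beside 768 of all genes. The share of all genes at an unadjusted p under 0.05 was not counted, here or below. At that threshold there were 2 of the 10 genes. Those 2 were Dll1, with a log2 fold change of -0.39 (SE 0.15, adjusted p = 0.228), and Hey2, with 0.74 (SE 0.34, adjusted p = 0.312). Notch1 was at 4.95 to 11.6 CPM and 5.72 to 14.2 CPM with a log2 fold change of 0.12, Notch2 at 7.66 to 16.5 and 9.27 to 18.5 CPM with 0.26, and Hes5 at 1.97 to 7.73 and 2.84 to 8.24 CPM with 0.40. The other values were 0.54 for Notch3, 0.13 for Jag1, 0.20 for Rbpj, 0.08 for Hes1 and -0.01 for Hey1. The groups of all 10 genes overlapped, where those of 1.34% of all genes did not. Of the 12 astrocyte markers 1 passed, with a median log2 fold change of 0.54 over the list. Their summed level ran from 1161 to 3941 CPM at HC zt3 and from 2090 to 4756 CPM at ORM+1 h. At HC zt3 the astrocyte score was 0.889 in replicate 5 and 0.643 in replicate 6, against -1.87 to -1.62 in the others. Leaving out any 1 mouse still gave 0 of the 10 genes, while leaving out replicates 5 and 6 together was not tested.

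HFS TRF mice also had 0 of 10 genes past the test, beside 2.87% of all genes (2.24% higher), with 3 at an unadjusted p under 0.05. Notch1 was at 5.06 to 10.2 CPM (median 5.85) in the home cage and 8.70 to 12.2 CPM (median 10.3) after training, a log2 fold change of 0.58 (SE 0.19, adjusted p = 0.0912). It passed with DESeq2 (adjusted p = 0.0337), with only these 2 groups in the model (0.0445), and without HC zt3 replicate 5 (0.0264) or 6 (0.0471). Over all 8 alternatives its adjusted p ran from 0.0337 to 0.939, the highest being with the astrocyte score as a covariate, where its value was -0.08. Hes5 had a log2 fold change of 0.81 (SE 0.34, adjusted p = 0.23) and Hey2 of 0.75 (SE 0.34, adjusted p = 0.286). The other values were 0.41 for Notch2, 0.59 for Notch3, -0.22 for Dll1, 0.34 for Jag1, 0.19 for Rbpj, 0.12 for Hes1 and 0.06 for Hey1. With the choroid plexus score as a covariate, where 1163 of all genes passed, Notch2 (0.69, adjusted p = 0.00436) and Hey2 (0.92, adjusted p = 0.00694) passed. Over the other 7 alternatives their adjusted p was 0.313 to 0.951 and 0.158 to 0.417. Here 10 of 12 astrocyte markers rose. In this diet the astrocyte score at HC zt3 was 0.054 in replicate 5 and -0.030 in replicate 6, against -2.00 to -1.27 in the others.

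The training difference itself was compared between diets, and 0 of the 30 gene-by-diet-pair differences passed. Over all genes tested, 0% passed in each pair of diets as well. Notch1 came closest, its training difference being lower by 0.57 in HFS ad lib than in NC ad lib mice (95% interval -1.11 to -0.04, unadjusted p = 0.0397, adjusted p = 0.776). For Hey2 the same difference was -0.72 (interval -1.65 to 0.22), for Notch2 -0.68 (-1.45 to 0.09), for Hes5 -0.69 (-1.61 to 0.24) and for Dll1 0.12 (-0.30 to 0.53). These intervals leave room for differences as large as the training difference itself, so that passing in NC ad lib and not in the other diets is not shown to be a difference between diets.

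**Figure D2:**
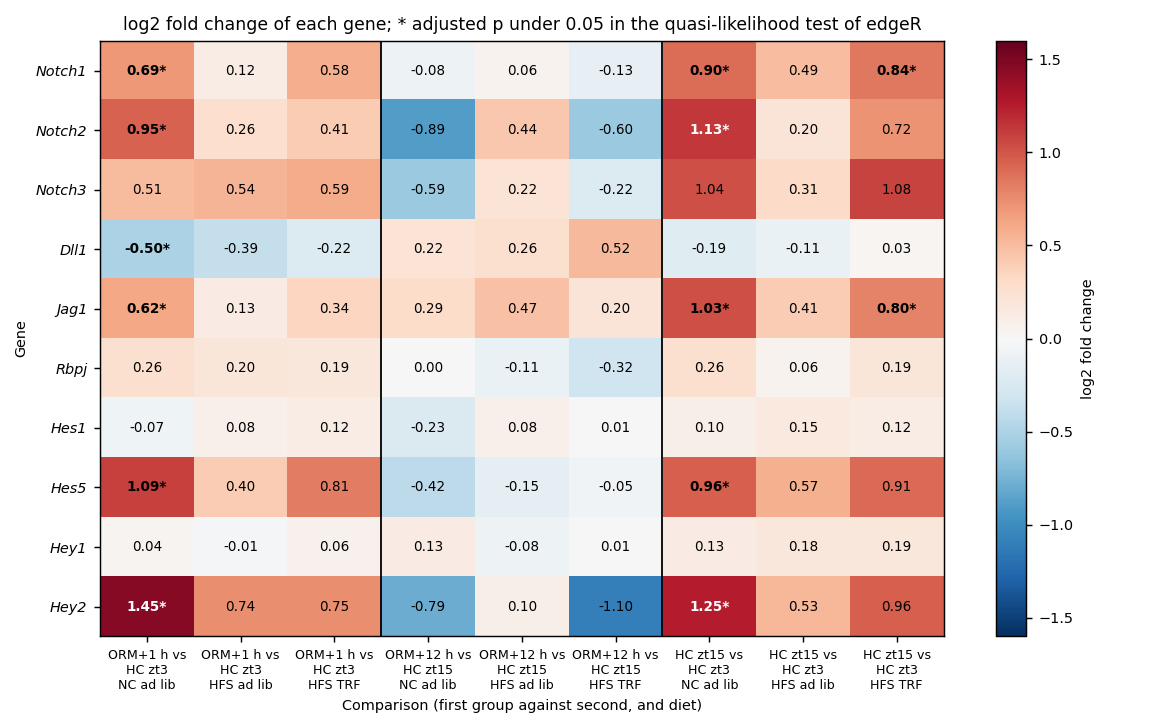
Log2 fold change of each gene (rows) in the 9 comparisons within a diet (columns), colored from blue (lower in the first group) to red (higher), with an asterisk where the adjusted p was under 0.05. The 13 asterisks lie in the columns of NC ad lib at 1 h (6) and of HC zt15 against HC zt3 in NC ad lib (5) and HFS TRF (2).

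At 12 h after training, ORM+12 h mice were set against home cage mice at zt15, and 0 of the 10 genes passed in any diet. The shares of all genes passing were 0.209% for NC ad lib mice, 0.179% for HFS ad lib mice and 2.46% for HFS TRF mice, with 0.0664% lower in NC ad lib, 0.0697% higher in HFS ad lib and 1.57% higher in HFS TRF mice. At an unadjusted p under 0.05 there were 3, 1 and 4 of the 10 genes, without a count of all genes to set beside them. DESeq2 called 0, 0 and 3, beside 296, 261 and 1738 of all genes. The median log2 fold changes of the 10 genes were -0.15, 0.09 and -0.09, beside 0 over all genes in each diet.

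With NC ad lib and with HFS TRF, Notch2 and Hey2 had the largest differences, and within each diet their values had the sign of the choroid plexus markers. In NC ad lib mice Notch2 was at 9.74 to 31.1 CPM (median 16.8) in HC zt15 and 7.75 to 13.3 CPM (median 9.41) in ORM+12 h, a log2 fold change of -0.89 (SE 0.28, adjusted p = 0.14), and Hey2 had one of -0.79 (SE 0.34, adjusted p = 0.236). In HFS ad lib mice the values were 0.44 for Notch2 and 0.10 for Hey2. In HFS TRF mice Hey2 was at 5.35, 2.83, 4.93, 6.30 and 4.53 CPM in HC zt15 replicates 1 to 5 and at 1.25 to 5.18 CPM (median 1.75) in ORM+12 h, a log2 fold change of -1.10 (SE 0.35, adjusted p = 0.0693), with 5 of 6 trained mice below all home cage mice. The median log2 fold change of the 8 choroid plexus markers was -2.48 for NC ad lib, 1.58 for HFS ad lib and -1.74 for HFS TRF, with 0 of 8 passing in each diet, and their part in the result was not tested further.

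Dll1 and Rbpj had values near the threshold in HFS TRF mice. Dll1 was at 5.73, 5.23, 6.81, 3.11 and 3.35 CPM in HC zt15 and at 5.32 to 8.61 CPM (median 6.83) in ORM+12 h, a log2 fold change of 0.52 (SE 0.16, adjusted p = 0.0554). Rbpj was at 17.9, 15.2, 10.4, 14.3 and 13.4 CPM and at 10.3 to 12.8 CPM (median 11.2), a log2 fold change of -0.32 (SE 0.11, adjusted p = 0.0894). The groups overlapped for both genes, where those of 1.94% of all genes did not. DESeq2 called Dll1 (adjusted p = 0.0186), Hey2 (0.0259) and Rbpj (0.0396), and over the 8 alternatives the adjusted p ran up to 0.204 for Dll1, 0.109 for Hey2 and 0.257 for Rbpj. Dll1 also passed without HC zt15 replicate 3 (0.0138) or ORM+12 h replicate 1 (0.0369) or 4 (0.0424), Rbpj without HC zt15 replicate 3 (0.026), and Hey2 without HC zt15 replicate 2 (0.0492) or ORM+12 h replicate 6 (0.0248).

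For the remaining genes at 12 h, the log2 fold changes with NC ad lib were -0.08 for Notch1, -0.59 for Notch3, 0.22 for Dll1, 0.29 for Jag1, 0.00 for Rbpj, -0.23 for Hes1, -0.42 for Hes5 and 0.13 for Hey1. With HFS ad lib they were 0.06 for Notch1, 0.22 for Notch3, 0.26 for Dll1, 0.47 for Jag1, -0.11 for Rbpj, 0.08 for Hes1, -0.15 for Hes5 and -0.08 for Hey1. With HFS TRF they were -0.13 for Notch1, -0.60 for Notch2, -0.22 for Notch3, 0.20 for Jag1, -0.05 for Hes5 and 0.01 for both Hes1 and Hey1.

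Between diets, the largest difference in the 12 h comparison was that of Notch2, whose log2 fold change was higher by 1.32 in HFS ad lib than in NC ad lib mice (95% interval 0.55 to 2.09, adjusted p = 0.0817). Of 8 alternatives, it passed in 1, with DESeq2 (adjusted p = 0.0409), and also without HFS ad lib HC zt15 replicate 3 (0.0255) and without HFS ad lib ORM+12 h replicate 4 (0.0269). Over all genes, 0.106% (32 genes) passed this difference, and that number was 732 with DESeq2, 73 with filterByExpr, 108 with the astrocyte score, 52 with the replicate block, 17 with a minimum of 1 count, 3 with the choroid plexus score and 0 with only the groups compared. For Hey2 the value was 0.89 (interval -0.05 to 1.82).

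Home cage mice at zt15 and at zt3 were compared for time of day, with the limit that the times belong to separate experiments, and the HC zt3 mice here are those of the comparison at 1 h. In NC ad lib mice 5 of the 10 genes passed, all higher at zt15, namely Notch1, Notch2, Jag1, Hes5 and Hey2. Over all genes, 11.7% passed, 5.18% with a higher and 6.54% with a lower level at zt15. The median log2 fold change of the 10 genes was 0.93, beside 0 over all genes.

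In NC ad lib mice at zt15, Jag1 was at 1.33 to 4.80 CPM (median 2.72), against 1.05 to 1.78 CPM at zt3, and rose by 1.03 on the log2 scale (SE 0.20, adjusted p = 0.000108). Notch1 was at 6.67 to 14.7 CPM (median 12.4) and rose by 0.90 (SE 0.19, adjusted p = 0.000522). In both genes 5 of 6 zt15 mice were above all zt3 mice. Notch2, at 9.74 to 31.1 CPM (median 16.8), rose by 1.13 (SE 0.28, adjusted p = 0.0029). Hey2, at 2.74 to 6.59 CPM (median 3.85), rose by 1.25 (SE 0.34, adjusted p = 0.00818), and its groups did not overlap, nor did those of 5.85% of all genes. Hes5 ran from 2.40 to 9.06 CPM (median 8.46) and rose by 0.96 (SE 0.34, adjusted p = 0.0498), with 4 of 6 mice above all zt3 mice. Its call was lost without HC zt3 replicate 1 to 5 or HC zt15 replicate 1, 2, 3 or 6, where the adjusted p was 0.0645 to 0.114, while the other 4 calls held with any 1 mouse left out.

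The other 5 genes did not pass in these mice. Notch3 was at 0.686 to 1.98 CPM at zt15 and had a log2 fold change of 1.04 (SE 0.40, adjusted p = 0.0766), and Rbpj of 0.26 (SE 0.11, adjusted p = 0.103). Hey1 (0.13), Hes1 (0.10) and Dll1 (-0.19) had small values, and the 95% interval of Dll1 ran from -0.48 to 0.10.

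In HFS TRF mice 2 of the 10 genes passed between zt15 and zt3, beside 14.2% of all genes, 5.95% higher and 8.26% lower. Jag1 was at 3.98, 3.55, 3.09, 2.40 and 2.42 CPM in the 5 mice at zt15 and at 1.18 to 2.09 CPM in the 6 mice at zt3. Its groups did not overlap, nor did those of 9.55% of all genes, and it rose by 0.80 (SE 0.21, adjusted p = 0.00377). Notch1 was at 13.9, 10.1, 16.5, 9.66 and 12.0 CPM at zt15 against 5.06 to 10.2 CPM at zt3, and rose by 0.84 (SE 0.20, adjusted p = 0.00169). Both calls held with any 1 mouse left out. Values of all 10 genes were positive, with a median of 0.76, and Hey2 (0.96, adjusted p = 0.0549), Notch3 (1.08, 0.0678), Hes5 (0.91, 0.0688), Notch2 (0.72, 0.0873) and Hey1 (0.19, 0.0914) did not pass, nor did Rbpj (0.19), Hes1 (0.12) and Dll1 (0.03).

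Several of these passed in other settings. Hey2 was called in 6 of 8 alternatives, with an adjusted p of 0.0437 with filterByExpr, 0.0493 with DESeq2 size factors, 0.031 with DESeq2, 0.0119 with only the groups compared, 0.0235 with the replicate block and 0.00573 with the choroid plexus score, and its highest adjusted p was 0.161. DESeq2 called Notch3 (0.0446, at most 0.815 over the alternatives), and the choroid plexus score called Notch2 (0.012, at most 0.548), Hey1 (0.0406, at most 0.959) and Hes5 (0.0466, at most 0.497). Calls were also gained when 1 mouse was left out. Hey2 passed without HC zt3 replicate 3 (adjusted p = 0.0457) or 6 (0.0398) or HC zt15 replicate 2 (0.0342), and Notch2 without HC zt3 replicate 6 (0.0361) or HC zt15 replicate 2 (0.0361) or 5 (0.0428). Notch3 passed without HC zt15 replicate 1 (0.0289), 4 (0.0245) or 5 (0.0338), and Hes5 (0.0165) and Hey1 (0.0422) without HC zt3 replicate 5. Notch3 differed widely within HC zt15, with 0.344, 0.263 and 0.428 CPM in replicates 1, 4 and 5 and 2.27 and 1.98 CPM in replicates 2 and 3.

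HFS ad lib mice had 0 of 10 genes past the test between zt15 and zt3, beside 10.4% of all genes (3.88% higher, 6.54% lower). At an unadjusted p under 0.05 there were 3, and DESeq2 called 0, beside 3539 of all genes. Notch1 was at 4.95 to 11.6 CPM at zt3 and 9.25 to 13.7 CPM at zt15, a log2 fold change of 0.49 (SE 0.19, adjusted p = 0.0914), and passed without HC zt3 replicate 5 (0.0255), as did Hey1 (0.0432). For Jag1 the value was 0.41 (adjusted p = 0.183) and for Hey1 it was 0.18 (adjusted p = 0.115). The other values were 0.20 for Notch2, 0.31 for Notch3, -0.11 for Dll1, 0.06 for Rbpj, 0.15 for Hes1, 0.57 for Hes5 and 0.53 for Hey2. The groups of all 10 genes overlapped, where those of 4.84% of all genes did not. None of the 30 differences between diets in this comparison passed, the smallest adjusted p being that of Notch2 with a difference of -0.93 in HFS ad lib against NC ad lib mice (95% interval -1.70 to -0.16, adjusted p = 0.451). Over all genes tested, 0% passed these differences in each pair of diets.

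Astrocyte markers differed between zt15 and zt3 as well. Of the 12, all rose with the NC ad lib diet, 4 with HFS ad lib and 11 with HFS TRF, with median log2 fold changes of 1.17, 0.66 and 1.13. With the astrocyte score as a covariate, Jag1 (0.80, adjusted p = 0.0191) and Hey2 (1.23, adjusted p = 0.0344) still passed in NC ad lib mice, while Notch2 (0.84, adjusted p = 0.0985), Notch1 (0.19, adjusted p = 0.492) and Hes5 (-0.33, adjusted p = 0.497) did not, and 0 passed in HFS TRF mice, with Jag1 at 0.56 (adjusted p = 0.158) and Notch1 at 0.11 (adjusted p = 0.766). The number passing among all genes fell too, from 3534 to 1987 with NC ad lib and from 4282 to 2348 with HFS TRF. With the choroid plexus score as a covariate, where 3356 and 4647 of all genes passed in these diets, all 7 passed. Over the other alternatives run for these 7 values, which leave out the astrocyte score, 1 call was lost, that of Hes5 in NC ad lib mice with the size factors of DESeq2 in edgeR (adjusted p = 0.051).

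**Figure D3:**
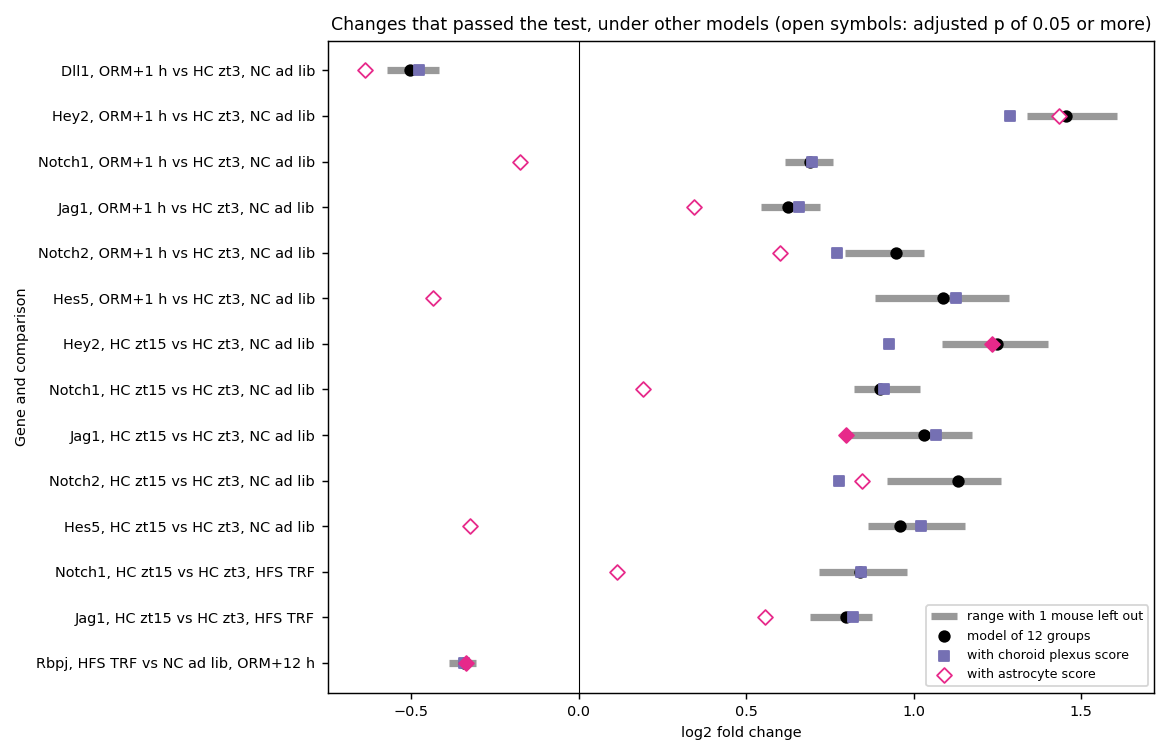
Log2 fold changes (horizontal axis) of the 14 values that passed the test (rows) in the model of 12 groups (black circles), with 1 mouse left out in turn (gray bars, lowest to highest), with the choroid plexus marker score (squares) and with the astrocyte marker score (diamonds) as a covariate, open symbols having an adjusted p of 0.05 or more. The diamonds lie at -0.18, 0.19 and 0.11 for Notch1 and at -0.44 and -0.33 for Hes5, whereas those of Hey2 (1.43 and 1.23) and Rbpj (-0.34) lie close to the circles.

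Diets were compared within each condition over 12 pairs of groups, and 1 of the 120 gene-by-comparison values passed, beside 0.926% of all such values over all genes. At an unadjusted p under 0.05 there were 14, without a share of all genes counted at that threshold. The value that passed was Rbpj at ORM+12 h, which was at 12.2 to 16.2 CPM (median 14.5) in NC ad lib mice and 10.3 to 12.8 CPM (median 11.2) in HFS TRF mice, and was lower by a log2 fold change of -0.34 (SE 0.11, adjusted p = 0.0285). In that comparison 5.31% of all genes were lower. The 2 groups overlapped slightly, and the call was lost without NC ad lib ORM+12 h replicate 1, 3 or 4 or HFS TRF ORM+12 h replicate 3, 4 or 6, with an adjusted p of 0.0519 to 0.091, and with only these 2 groups in the model (0.0848). HFS ad lib mice, at 11.3 to 13.5 CPM, lay between, at -0.23 against NC ad lib (adjusted p = 0.188).

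Hey1 at ORM+12 h was at 65.3 to 85.2 CPM (median 69.5) in NC ad lib and 56.8 to 65.1 CPM (median 61.5) in HFS ad lib mice. Its log2 fold change was -0.23 (SE 0.07, adjusted p = 0.0729), which did not pass. In that comparison 2.27% of all genes (684) passed, and 1434 passed with DESeq2 and 0 with only the groups compared. Of 8 alternatives 1 called Hey1, DESeq2 (adjusted p = 0.0406), and edgeR called it without HFS ad lib ORM+12 h replicate 4 (0.0446). Without the same mouse Notch2, with a value of 0.75 (SE 0.28, adjusted p = 0.123) in this comparison, passed at 0.92 (adjusted p = 0.0325). At HC zt3 the smallest unadjusted p-values were those of Jag1, with a value of 0.53 in HFS ad lib against NC ad lib (SE 0.20, adjusted p = 0.588), and of Hes1, -0.31 (SE 0.11, adjusted p = 0.588), in a condition where 0% of all genes passed. At HC zt15, 0.0630% of all genes passed for HFS ad lib against NC ad lib, and the value of Notch3 was -1.09 (SE 0.40, adjusted p = 0.34). At ORM+1 h, 0% of all genes passed the adjusted test between any 2 diets (DESeq2 called 25 for HFS ad lib and 1 for HFS TRF, each against NC ad lib), and 0 of the 10 had an unadjusted p under 0.05. Over all 120 diet values the log2 fold changes ran from -1.09 to 0.83, and the 90 differences of changes from -1.19 to 1.32.

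Genes around the 10 in the pathway gave 45 calls in 22 of 48 genes over the 9 comparisons within a diet. For ORM+1 h against HC zt3, 5 were higher and 3 lower with NC ad lib, 0 passed with HFS ad lib and 3 were higher with HFS TRF. For ORM+12 h against HC zt15 there were 0, 0 and 3 (1 higher, 2 lower), and for HC zt15 against HC zt3 there were 11 higher and 1 lower, 5 higher and 2 lower, and 9 higher and 3 lower. Over all genes tested, the shares called were 5.73%, 1.23% and 2.87% at ORM+1 h, 0.209%, 0.179% and 2.46% at ORM+12 h, and 11.7%, 10.4% and 14.2% at zt15, in the same order of diets. The medians of the 48 genes lay between 0.01 and 0.16 in all 9 comparisons.

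Of the 10 genes called in the same kind of comparison in at least 2 diets, the 8 with the smallest adjusted p are named. Nrarp, a Notch target that feeds back on the Notch transcription complex, rose at ORM+1 h in NC ad lib (1.26, SE 0.26, adjusted p = 0.000569) and HFS TRF mice (0.95, SE 0.26, adjusted p = 0.0227), and had a value of 0.32 in HFS ad lib mice (adjusted p = 0.675). Between zt15 and zt3 it rose by 0.88 (NC ad lib) and 1.03 (HFS TRF), with 0.22 in HFS ad lib mice (adjusted p = 0.676). Lfng, a glycosyltransferase that modifies Notch receptors, rose between zt3 and zt15 in all 3 diets, by 1.46, 0.92 and 1.13, and at ORM+1 h in NC ad lib mice by 1.58 (SE 0.30, adjusted p = 0.000218).

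The remaining 6 named genes moved less. Neurl1b, a ubiquitin ligase acting on Notch ligands, rose between zt3 and zt15 in each diet, by 0.45 with NC, 0.58 with HFS ad lib and 0.50 with HFS TRF. Spen, a corepressor of Rbpj, rose by 0.35, 0.35 and 0.41, and Crebbp, a coactivating acetyltransferase, by 0.31, 0.22 and 0.23. At ORM+1 h Spen also rose in HFS TRF mice, by 0.44 (adjusted p = 0.000168). It did not pass there in NC ad lib (0.20) or HFS ad lib mice (0.16). Numb, an inhibitor of Notch, rose by 0.47 (NC ad lib) and 0.38 (HFS TRF) and fell by 0.46 at ORM+12 h in HFS TRF mice (adjusted p = 0.0224). Numb also rose at ORM+1 h in NC ad lib mice, by 0.35 (adjusted p = 0.037). Fbxw7, which targets the Notch intracellular domain for degradation, fell by 0.19 (HFS ad lib) and 0.31 (HFS TRF), and Kat2a, another acetyltransferase, fell by 0.20 (NC ad lib) and 0.28 (HFS TRF).

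The spread of mice around their group means was used to ask which genes vary together with which cell type markers, over 71 mice and 110 relations of 10 genes with 11 marker lists. Notch1 followed the astrocyte score with Pearson's r of 0.79 and Spearman's rho of 0.79, and Hes5 with 0.80 and 0.78. For both, the permutation p of 1e-05 was the smallest that 100000 permutations can give, or 0.000157 for r and 0.000183 for rho after Benjamini-Hochberg adjustment over the 110 relations. Without the 2 mice farthest from the median score, r was 0.77 for Notch1 and 0.78 for Hes5, and within the first and second experiment it was 0.86 and 0.70 for Notch1 and 0.84 and 0.76 for Hes5.

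Notch2 and Hey2 followed the choroid plexus score instead, with r of 0.83 (rho 0.84) and 0.75 (rho 0.74), the same smallest permutation p and the same adjusted value. Without the 2 farthest mice r was 0.82 and 0.75, and within the experiments 0.79 and 0.89 for Notch2 and 0.66 and 0.86 for Hey2. Both went against the neuron score, with r of -0.72 for Notch2 and -0.62 for Hey2. Against the astrocyte score, Notch2 had an r of 0.25 (adjusted p = 0.152, permutation) and Hey2 of 0.06 (adjusted p = 0.755, permutation).

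**Figure D4:**
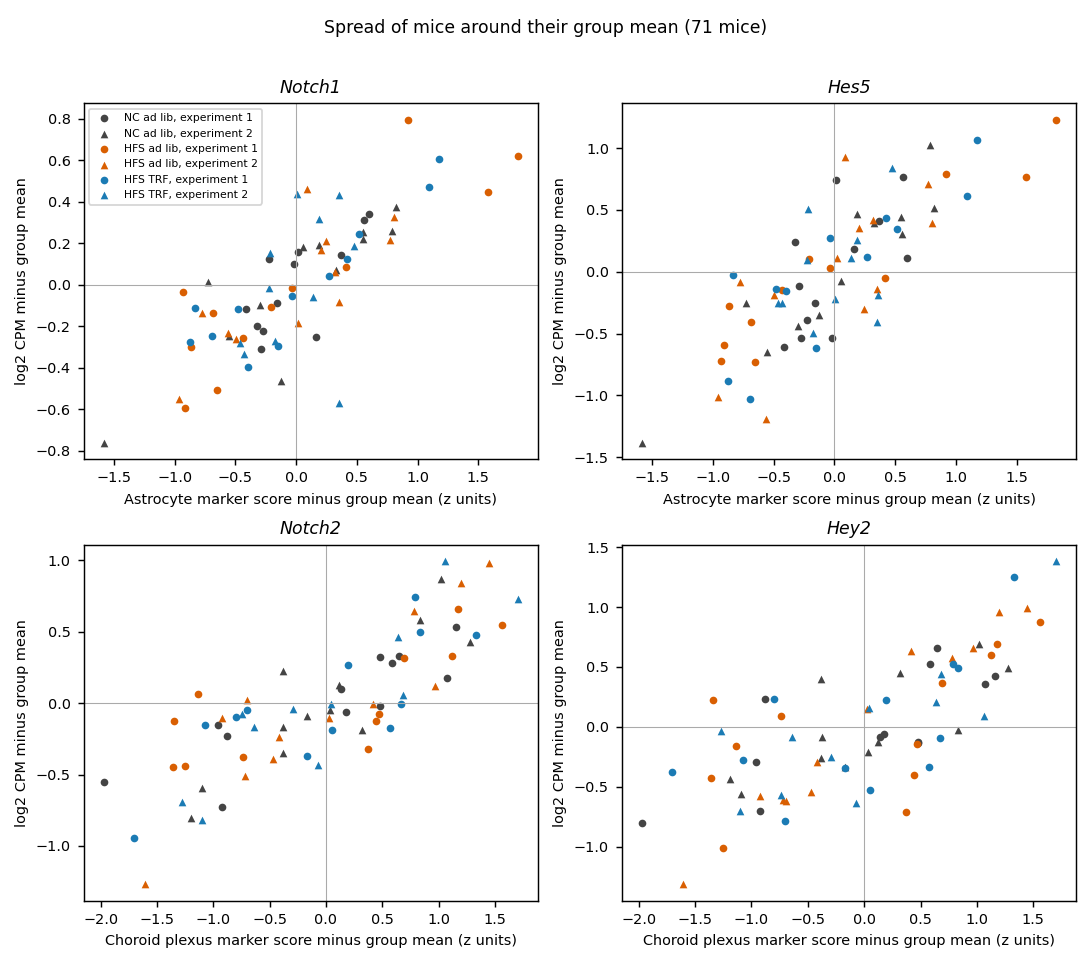
Each point is 1 of 71 mice, colored by diet and shaped by experiment, with the marker score minus its group mean (z units, horizontal axis) against the log2 CPM minus its group mean (vertical axis) of Notch1 and Hes5 for astrocyte markers and of Notch2 and Hey2 for choroid plexus markers. Points rise from lower left to upper right in all 4 panels, with r of 0.79, 0.80, 0.83 and 0.75.

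The other genes followed the marker scores less closely. Hey1 had an r of 0.48 with astrocytes, 0.52 with progenitors and new neurons, and -0.44 with choroid plexus, and the first 2 were weaker in the second experiment (0.27 in each) than in the first (0.66 and 0.76). Hes1 had 0.44 with choroid plexus, -0.41 with hippocampal neurons and 0.37 with mural cells. For choroid plexus it was 0.48 in the first and 0.37 in the second experiment. With hippocampal neurons and mural cells it was -0.65 and 0.63 in the first experiment, but -0.08 and 0.12 in the second. Notch3 had 0.44 with oligodendrocyte precursors, 0.42 with astrocytes and 0.13 with mural cells, the vessel cells it is known from. Jag1, Dll1 and Rbpj had no relation with an adjusted permutation p under 0.05.

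**Figure D5:**
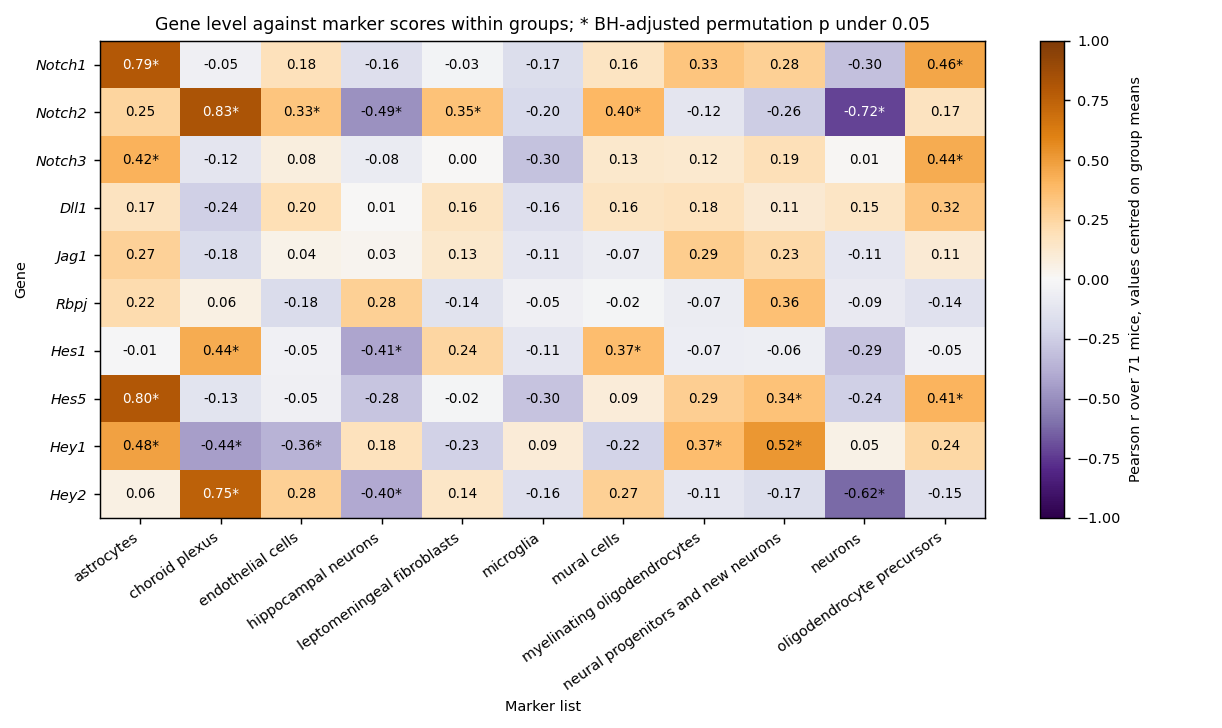
Pearson's r over 71 mice between each of the 10 genes (rows) and 11 cell type marker scores (columns), all values centered on group means, from purple (negative) to orange (positive), with asterisks for a Benjamini-Hochberg adjusted permutation p under 0.05. The strongest cells are Notch1 and Hes5 with astrocytes, and Notch2 and Hey2 with choroid plexus.

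The same centered values show which members vary together. Among the 45 pairs, Notch2 with Hey2 (r = 0.77) and Notch1 with Hes5 (r = 0.76) stood highest, and Hes5 with Hey1 came next at 0.41. Notch2 with Hes5 was at 0.19 and Notch1 with Hey2 at 0.12. These are descriptions over mice that share libraries and marker content.

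By the same measure over 14507 genes with a mean log2 CPM of at least 0, the gene closest to Notch1 was Slc6a11 (r = 0.86), a GABA transporter of astrocytes, followed by Btbd17 and the proteoglycan gene Bcan (0.84 each). Closest to Hes5 were Sfxn5 (0.86), the mitochondrial carrier gene Slc25a18 (0.84) and Farp1 (0.82). Notch2 lay closest to Cpq (0.94) and Cd63 (0.93), whose pseudogene Cd63-ps came next (0.93), and Hey2 to Cdr2 (0.83), Arhgef5 (0.82) and the cyclin gene Ccnd3 (0.82). Hey1 was closest to Lxn (0.80), Sox8 (0.77) and Ddit4 (0.76).

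The remaining 5 genes had no neighbor above 0.7. Rbpj was closest to Nebl (0.69), Ranbp6 (0.64) and Ppp4r3b (0.63), Dll1 to Zdhhc8 (0.62), Kcnk9 (0.61) and Slc6a6 (0.58), Hes1 to Rnh1 (0.61), Slc25a3 (0.60) and Optn (0.60), Notch3 to Rgma (0.60), Ptn (0.58) and Zfp46 (0.57), and Jag1 to Dpy19l4 (0.59), Arsk (0.53) and E330013P04Rik (0.48).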

How the data were processed

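Hippocampal pS6-TRAP libraries of 71 mice were sequenced as read pairs. Per the labels and the methods of the study, the authors trimmed reads with Trim Galore 0.6.7 and cutadapt 3.4, aligned them with HISAT2 2.2.0 to GRCm39 and assigned reads with a unique alignment to genes by featureCounts of Subread 2.0.3. The labels also list another genome build, while the methods name only GRCm39. The deposited values are raw counts, not normalized. The annotation release and strand setting are not given in the sources used here. Of the counts of the 10 genes, 70.1% were even, and of all counts from 1 to 100, 77.7%, so that a count may not be an independent fragment. The share differed between genes. It was 95.8% for Notch3, 91.5% for Hey2 and 90.1% for Notch1 and for Jag1, and from 39.4% (Hey1) to 76.1% (Rbpj) for the others.

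Counts were analysed here with edgeR 4.0.16 in R 4.3.3 (TMM normalization, quasi-likelihood test, 1 model of 12 groups, 30141 genes with at least 10 counts in total). The study's methods used DESeq2, run here (1.42.0) as an alternative. CPM used TMM library sizes, log2 CPM a prior count of 2, and CPM per kilobase the exon length in GENCODE M39, to which 56310 of 57010 genes matched. The 9 comparisons within a diet, 12 between diets and 9 differences of changes were each adjusted by Benjamini-Hochberg. Alternatives were a minimum of 1 count, filterByExpr, DESeq2 size factors, DESeq2, only the groups compared, a replicate block, a choroid plexus score, a fold above 1.2 for zt15 against zt3, and leaving out each mouse. An astrocyte score was added after seeing the data. A score is the mean z score of a marker list. Scripts were tested on simulated data. Of 175 pairs of mice of the same group, none had counts that differed as little as sampling noise.

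The genes and lists were chosen with earlier results of these data known. All 10 genes were tested in every comparison. Of 48 other pathway genes, those called in at least 2 diets in the same kind of comparison were named, at most 8, smallest adjusted p first, and for each of the 10 genes the 3 with the highest Pearson r of log2 CPM centered on group means. The promoter sequence of 1 of the target genes is not reported here.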

Additional observations from a re-analysis of the deposited data

Results flagged for a closer look

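Of 120 groups of mice (10 genes in 12 groups), 5 held a mouse far from the others by Dixon's test, where chance gives about 1 in 20. Notch2 gave 3 of them, each the highest mouse of its group and each with the highest choroid plexus score of its group. In HFS TRF ORM+1 h, replicate 3 had 20.03 CPM of Notch2 against 12.7 to 14.3 CPM in the others, with Ttr at 5958 CPM. In HFS ad lib HC zt15, replicate 3 had 23.1 CPM against 8.20 to 11.9 CPM, with Ttr at 8186 CPM. In HFS TRF ORM+12 h, replicate 6 had 19.1 CPM against 8.50 to 11.4 CPM, with Ttr at 9759 CPM. The part of choroid plexus in these values was not tested.

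Hes5 was lowest in HFS ad lib HC zt15 replicate 2, at 2.28 CPM against 4.96 to 7.04 CPM in the others, and the astrocyte score of this mouse (-0.18) was above that of replicate 6 (-0.398). Hey1 was highest in NC ad lib ORM+12 h replicate 1, at 85.2 CPM against 65.3 to 70.96 CPM, and this mouse had the highest astrocyte score of its group (0.979).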

How the results depend on the processing

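Over 7 alternatives other than the astrocyte score, the 14 called values kept their direction in 98 of 98 cases and their call in 93. The 5 lost were Jag1 at ORM+1 h in NC ad lib (adjusted p = 0.0571 with at least 1 count, 0.0555 with DESeq2 size factors, 0.0521 with the replicate block), Hes5 at zt15 and Rbpj between diets. With the astrocyte score, the genes called went from 6 to 0 at ORM+1 h in NC ad lib, from 5 to 2 at zt15 in NC ad lib and from 2 to 0 at zt15 in HFS TRF. Notch1 (-0.18) and Hes5 (-0.44) at 1 h and Hes5 (-0.33) at zt15 in NC ad lib then changed sign. DESeq2 called 1 gene at ORM+1 h, 3 at ORM+12 h and 4 at zt15 in HFS TRF. Over all 30141 genes it called 1354, 1738 and 4702 there. It also called 2 between diets, at ORM+12 h, and 1 difference of changes (732 of all genes). Between diets at that time it called 1434 of all genes for HFS ad lib and 3333 for HFS TRF, each against NC ad lib. With only the groups compared, 1 was called at ORM+1 h in HFS TRF and 0 between diets. With the choroid plexus score, 2 were called at ORM+1 h and 6 at zt15 in HFS TRF, beside 1163 and 4647 of all genes. At ORM+12 h in HFS TRF, filterByExpr called 1 and the replicate block 1, beside 1113 of 21512 and 700 of 30141 genes. Same-numbered mice did not all correlate, which cannot settle whether replicate numbers pair the mice, and the main model did not pair them. The block called 5 at 1 h for NC ad lib mice (1783 of all genes), with 3 at zt15 for HFS TRF (4404 of all genes). The causes were not tested. Leaving out 1 mouse gave 3 to 6 called genes at ORM+1 h in NC ad lib, 0 to 0 in HFS ad lib and 0 to 1 in HFS TRF, 0 to 0, 0 to 0 and 0 to 2 at ORM+12 h, 4 to 5, 0 to 2 and 2 to 4 at zt15, 0 to 3 between diets and 0 to 1 for differences of changes. Over all genes, the number of genes called went with DESeq2 from 371 to 768 (HFS ad lib) and 864 to 1354 (HFS TRF) at ORM+1 h and from 63 to 296 (NC ad lib), 54 to 261 (HFS ad lib) and 741 to 1738 (HFS TRF) at ORM+12 h, and with the astrocyte score from 1727 to 349 (NC ad lib, ORM+1 h), 741 to 77 (HFS TRF, ORM+12 h), 3534 to 1987 (NC ad lib, zt15) and 4282 to 2348 (HFS TRF, zt15). With only the groups compared, it went from 371 to 180 (HFS ad lib) and 864 to 1521 (HFS TRF) at ORM+1 h, from 3139 to 1778 at zt15 (HFS ad lib) and from 2645 to 1185 for HFS TRF against NC ad lib at ORM+12 h. With the choroid plexus score it went from 741 to 64 and with filterByExpr to 1113 (HFS TRF, ORM+12 h). Depth limits Notch3 most, at 8 to 120 counts per mouse.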
